A study of Mus musculus with 3 samples.

Results

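NFAT transcription factors and the calcineurin genes that switch them on and hold them back were examined in single nuclei of the newborn mouse aortic valve. The set holds 10 genes, taken by name from the 36167 features of the deposited matrices: the factors Nfatc1, Nfatc2, Nfatc3, Nfatc4 and Nfat5, the calcineurin subunits Ppp3ca, Ppp3cb and Ppp3r1, and the calcineurin regulators Rcan1 and Rcan2. All 10 were found in each of the 3 matrices, with 193158 UMIs (unique molecular identifiers, counted RNA molecules) in the analysed nuclei. The RNA came from aortic valve structures of pups at postnatal day 1, flash frozen and pooled into 3 replicates of 22 to 24 aortic roots each. Every pup carried the strain label B6.Cg-Scx<tm1.1(EGFP)Skom, which names an EGFP allele of Scx, with the stock number RBRC11098, and the labels do not give its zygosity. No other genotype or treatment was included, so classes of nuclei were compared with each other inside each pool. Each pool mixes many animals. The p-values measure how much differences between classes vary from pool to pool. That spread was estimated over all classes of a fit together.

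Calcineurin is a phosphatase that becomes active when calcium rises and calmodulin binds it. It consists of a catalytic subunit, such as the products of Ppp3ca and Ppp3cb, and a regulatory subunit that binds calcium, such as the product of Ppp3r1. It removes phosphates from the proteins of Nfatc1, Nfatc2, Nfatc3 and Nfatc4, which then enter the nucleus and bind DNA at sites with a GGAAA core. Nfat5 shares the DNA-binding fold but responds to salt and osmotic stress and is not a calcineurin substrate of this kind. Rcan1 and Rcan2 encode proteins that bind calcineurin and restrain it, and Rcan1 is itself known to be switched on by calcineurin and NFAT from a start inside the gene, which closes a feedback loop. Nfatc1 in the endocardium is known to be required for the formation of the heart valves. RNA counts do not show whether the proteins are phosphorylated or where in the cell they lie.

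The 2 start regions of Rcan1 are shown because they differ in the GGAAA core. Each window is the 250 bases before an annotated start, from RefSeq on GRCm38.p6, written in the direction of transcription, with every GGAAA or TTTCC in capitals, both being the same core read on either strand. The window nearer the end of the gene, at chr16:92400079-92400328 on the minus strand, holds 3 cores. The window farther upstream, at chr16:92466170-92466419 on the minus strand, holds 0.
Rcan1 downstream start: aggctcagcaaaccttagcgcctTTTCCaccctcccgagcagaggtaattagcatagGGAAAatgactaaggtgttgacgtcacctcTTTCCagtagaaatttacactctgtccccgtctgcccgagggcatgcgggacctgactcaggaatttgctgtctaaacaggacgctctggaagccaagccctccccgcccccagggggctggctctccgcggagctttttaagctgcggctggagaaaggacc
Rcan1 upstream start: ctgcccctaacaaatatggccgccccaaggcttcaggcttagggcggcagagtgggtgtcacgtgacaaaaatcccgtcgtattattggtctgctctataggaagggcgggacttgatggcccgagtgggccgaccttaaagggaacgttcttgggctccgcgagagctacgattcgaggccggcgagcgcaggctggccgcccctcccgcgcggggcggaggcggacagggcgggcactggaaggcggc
Of 32851 windows of the same length in the RefSeq table, 55.6% held at least 1 core and 6.39% held at least 3. Windows were listed for 8 of the 10 genes, 13 in all, and 8 of these 13 held at least 1 core. Those of Nfatc4, Ppp3cb and 1 of the 2 for Nfatc2 also held 3. The counts of the matrices are per gene and do not tell the Rcan1 starts apart, and a core in a window is a match of letters, not a site shown to be bound.

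The 3 pools held 10580, 5949 and 4611 deposited nuclei. Nuclei with at least 1000 UMIs and at most 5% of them from mitochondrial genes were kept, and after doublets were taken out 6459, 3078 and 3593 were left to analyse. Their median depth was 4288, 4771 and 3346 UMIs. Pools shared between 44 and 99 deposited barcodes, at most 1.66% of a pool. Clustering was done without the 10 genes, and clusters were named from marker genes, so each class carries the word "like". A class entered the tests if each pool gave it 20 nuclei or more, and 9 did: 3463 smooth muscle-like, 2732 endothelial-like, 2613 cardiomyocyte-like, 1478 valve interstitial-like, 1179 fibroblast-like, 371 mesothelial-like, 242 macrophage-like, 134 pericyte-like and 119 lymphatic endothelial-like nuclei. The label calls the sample a heterogeneous aortic valve, and valve interstitial-like nuclei made up 11.6% and endothelial-like nuclei 21.2% of the analysed nuclei on average over the pools. The 10 valve interstitial markers summed to 11260 CPM (a gene's UMIs scaled to a fixed total for the class) in the class named for them, where none was at 0, and the 13 endothelial markers to 8153 CPM in theirs. Some clusters carried markers of a second class. The smooth muscle-like cluster led by Sost (318 nuclei, 16 of them from pool 3) also passed 9 of 9 cardiomyocyte markers. The fibroblast-like cluster led by Cenpe (180 nuclei) passed 9 of 11 fibroblast and 8 of 10 valve interstitial markers. In the lymphatic endothelial-like class the 7 red cell genes stood at 24411 CPM in pool 3 against 272 and 503 CPM in pools 1 and 2, and without pool 3 all 5 calls of the class given below stood, at nearly the same sizes (Nfatc1 3.38, Nfat5 1.77, Nfatc2 1.73, Ppp3ca 1.29 and Rcan1 1.16).

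Levels below are CPM of the UMIs summed over a class in a pool. A difference is the log2 difference between a class and the mean of the other 8, from edgeR's quasi-likelihood test on the summed counts, and a gene is called when its Benjamini-Hochberg adjusted p over all 14820 genes tested is under 0.05. Because classes differ in very many genes, the share of all genes called stands beside each count. Of the 10 genes, 8 were called in cardiomyocyte-like nuclei, against 65% of all genes, with 5 higher (32.6% of all genes) and 3 lower (32.3%). Scaled by library totals alone, which moved the median of all genes there to -0.40, the split turned to 3 higher and 5 lower. In mesothelial-like nuclei 8 were called, against 56.5%, with 1 higher (33.5%) and 7 lower (23%). Smooth muscle-like nuclei had 6, against 42.3%, with 2 higher (21%) and 4 lower (21.4%). Fibroblast-like nuclei had 5, against 31.9%, with 3 higher (17.9%) and 2 lower (14%). Lymphatic endothelial-like nuclei had 5, against 20.9%, all 5 of them higher (12.7%) and 0 lower (8.19%). The count of 0 lower depends on the settings: Ppp3cb (-0.44, adjusted p = 0.0581) was called lower there in 8 others, Rcan2 (-0.44, adjusted p = 0.261) in 3, with -1.13 at a minimum of 500 UMIs, and Ppp3r1 in 1. In each of the remaining 4 classes 4 genes were called. Endothelial-like nuclei had 3 higher and 1 lower, against 38.6% called, 21.8% higher and 16.9% lower among all genes. The other 3 had 2 higher and 2 lower each, against 34.7% (18.4% and 16.3%) in valve interstitial-like, 27.3% (16.2% and 11.1%) in macrophage-like and 12% (8.01% and 3.95%) in pericyte-like nuclei. With library totals alone the macrophage-like split was 4 higher and 1 lower, and the pericyte-like split 2 and 1. Scaling by DESeq2 size factors gave 3 and 1 in macrophage-like, 2 and 1 in pericyte-like and 1 and 8 in mesothelial-like nuclei. The median difference of the 10 genes was -0.69 in mesothelial-like and 0.60 in lymphatic endothelial-like nuclei, where the medians over all genes were 0.05 and -0.06, and it lay between -0.16 and 0.19 in the other 7 classes.

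**Figure D1:**
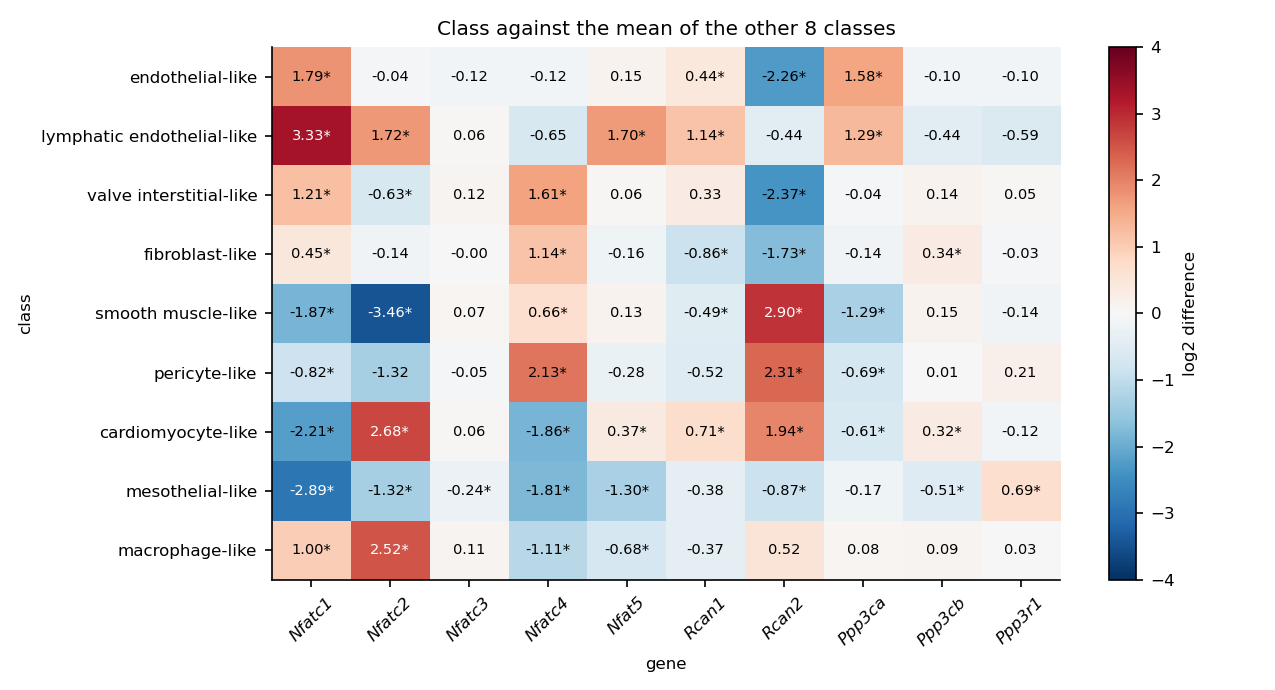
Log2 difference of each of the 10 genes (columns) in each class of nuclei (rows) against the mean of the other 8 classes, with blue for lower, red for higher and a star for an adjusted p under 0.05. The values run from -3.46 for Nfatc2 in smooth muscle-like nuclei to 3.33 for Nfatc1 in lymphatic endothelial-like nuclei, and the columns of Nfatc3 and Ppp3r1 hold 1 star each.

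Classes differed much more in some of these genes than in others. The mean level in the highest class was 50.7 times that in the lowest for Nfatc1, 49.3 times for Nfatc2, 24.2 times for Rcan2 and 16.6 times for Nfatc4. It was 7.71 times for Nfat5, 6.17 times for Ppp3ca and 3.31 times for Rcan1. Ppp3cb, Ppp3r1 and Nfatc3 spanned only 2.09, 2.01 and 1.66 times. A scaling by library totals alone, chosen after seeing the data, moved the median of all genes in cardiomyocyte-like nuclei from -0.06 to -0.40 and in mesothelial-like nuclei from 0.05 to -0.22, so small differences in these classes are relative to the scaling.

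**Figure D2:**
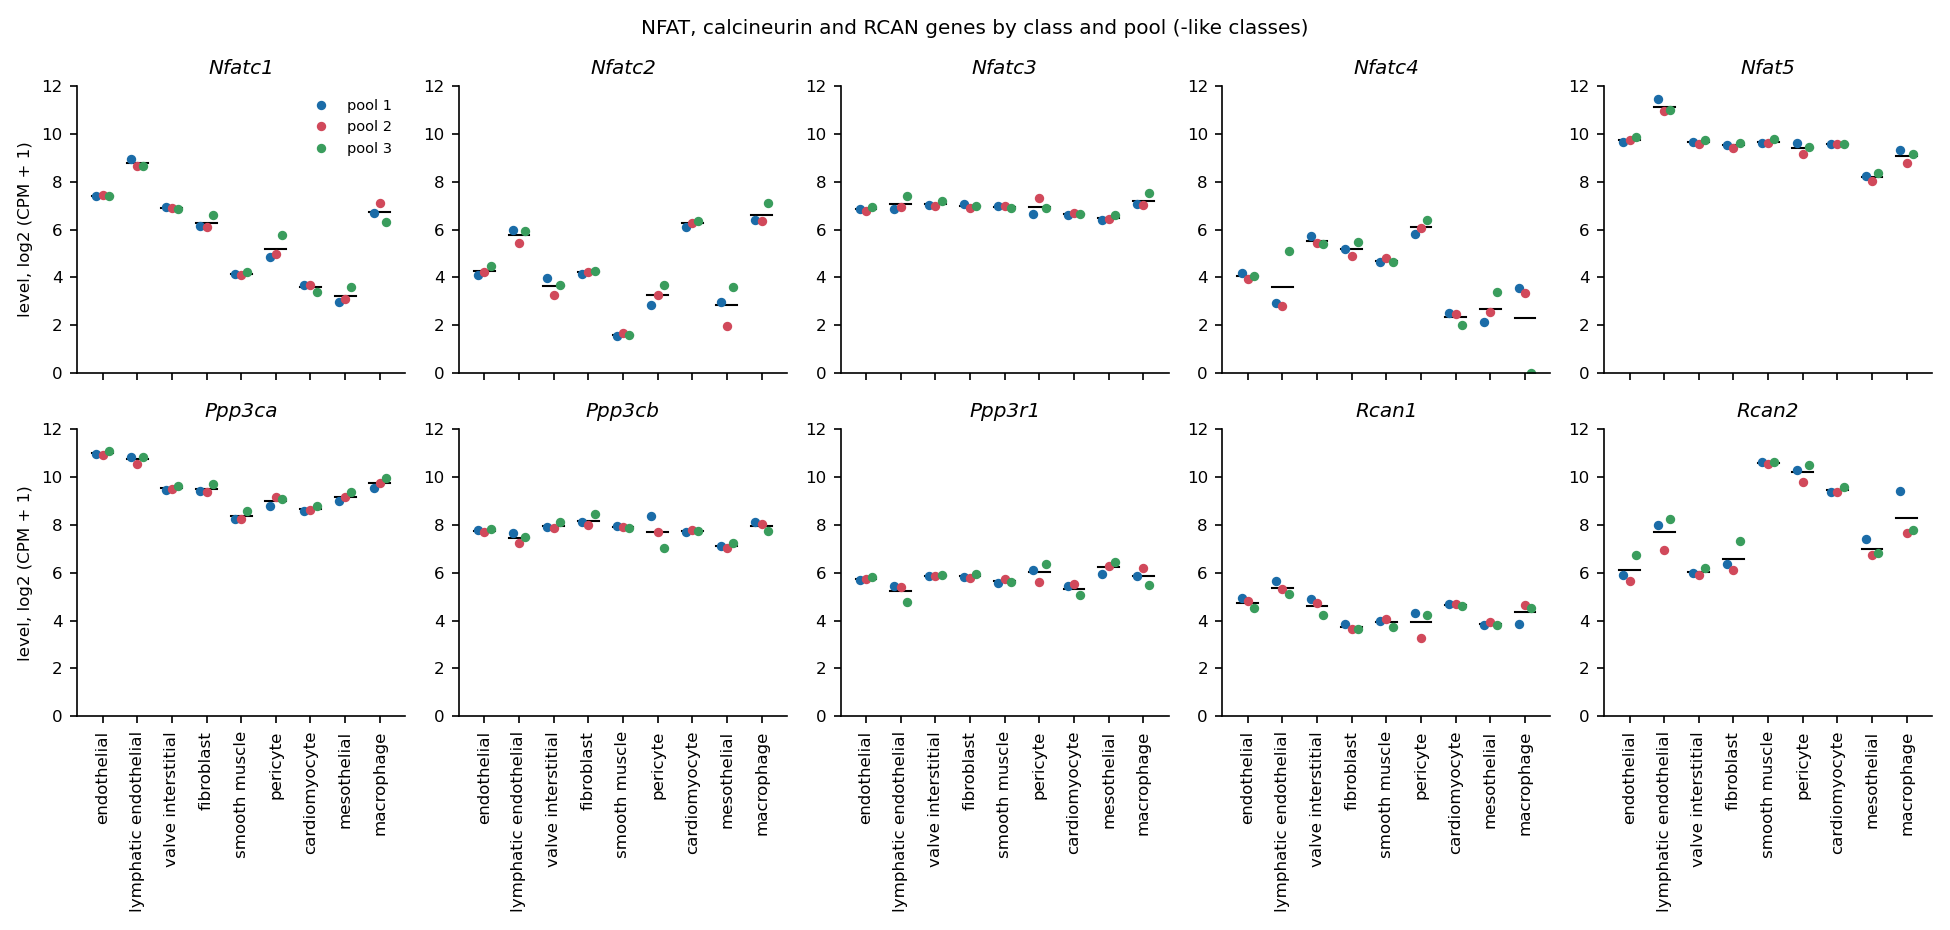
Level of each gene as log2 (CPM + 1) in the 9 classes, with 1 coloured point per pool and a black line at the mean of the 3 points. Nfatc1 runs from 436 CPM in lymphatic endothelial-like to 8.60 CPM in mesothelial-like nuclei, Rcan2 is highest in smooth muscle-like, pericyte-like and cardiomyocyte-like nuclei, and Nfatc3 is near level.

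Nfatc1 was highest in the lymphatic endothelial-like class, next in the endothelial-like class and then in the valve interstitial-like class. Its level in lymphatic endothelial-like nuclei was 495, 407 and 406 CPM in pools 1, 2 and 3. In endothelial-like nuclei it was 169.9, 173 and 166 CPM, and in valve interstitial-like nuclei 120.4, 118 and 114 CPM. These 3 classes did not overlap with each other in any pool. Macrophage-like nuclei had 103, 137 and 79.8 CPM, and fibroblast-like nuclei 69.9, 68.5 and 96.9 CPM, so the ranges of the valve interstitial-like, macrophage-like and fibroblast-like classes each overlapped with the next. Pericyte-like (37.2 ± 13.8 CPM, SD, n = 3 pools), smooth muscle-like (16.8 ± 0.724), cardiomyocyte-like (11.01 ± 1.37) and mesothelial-like nuclei (8.60 ± 2.36) followed in this order, of which the last 2 overlapped. 

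Nfatc1 was called in all 9 classes by edgeR's test. It was higher in lymphatic endothelial-like (log2 difference 3.33, SE 0.124, adjusted p = 1.20e-21), endothelial-like (1.79, SE 0.0802, adjusted p = 6.75e-20), valve interstitial-like (1.21), macrophage-like (1.00) and fibroblast-like nuclei (0.45). It was lower in mesothelial-like (-2.89), cardiomyocyte-like (-2.21), smooth muscle-like (-1.87) and pericyte-like nuclei (-0.82). The pericyte-like call rests on 9, 7 and 9 UMIs, had an adjusted p of 0.0486, and ended in 9 of the other settings tried, among them without pool 1 (adjusted p = 0.413) and without pool 2 (0.241). With doublets kept, the fibroblast-like call ended as well, at a difference of 0.17.

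Endothelial-like nuclei were then set directly against valve interstitial-like nuclei, the classes that hold the lining and the interior of the valve. The endothelial-like class also holds vessel nuclei and nuclei with endocardial markers. Its largest subsets, of 934 and 629 nuclei, had endocardial marker sums of 2731 and 2076 CPM and valve sums of 277 and 504 CPM. The contrast is therefore not one of the valve lining alone. Nfatc1 was higher on the endothelial side by a log2 difference of 0.52 (SE 0.102, adjusted p = 7.40e-05 by edgeR), and 4 of the 10 genes were called, 3 higher and 1 lower, against 40.5% of all genes (21.5% higher and 19% lower). Ppp3ca, a catalytic subunit, was higher by 1.44 (adjusted p = 2.56e-13), and Nfatc4 was lower by 1.54 (log2 difference -1.54, adjusted p = 6.54e-10). Nfatc2 differed by 0.53 (adjusted p = 0.0288), a call that ended with DESeq2, with no replicate block, without pool 2 (adjusted p = 0.259) and without pool 3 (0.170). The other 6 genes were not called, with differences between -0.22 and 0.11.

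Single nuclei gave the same order of the first 3 classes for Nfatc1. With every nucleus thinned to 1000 UMIs, the share with an Nfatc1 UMI was 27.5% ± 3.78 (mean and SD over the 3 pools) of lymphatic endothelial-like, 14.1% ± 1.22 of endothelial-like and 11.1% ± 1.54 of valve interstitial-like nuclei, whose median depths before thinning were 5295, 4446 and 3610.5 UMIs. Mesothelial-like nuclei, the class with the lowest level, had it in 2 of 371, or 0.577% ± 0.621, and were the deepest class with a median of 9904 UMIs. Without thinning, the shares were 72.0%, 42.4%, 27.5% and 6.11%, and macrophage-like nuclei, at 34.0%, came before the valve interstitial-like ones. Free RNA in the droplets can give such UMIs too, and these shares were not compared by a test.

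Endothelial-like nuclei formed 7 clusters, 6 of which had at least 20 nuclei in each pool and are called here by 2 of their leading genes. Nfatc1 was highest in 2 of them, Dlgap2/Cntnap5a (255 nuclei) and Kcnc2/Wnt9b (428 nuclei). In Dlgap2/Cntnap5a nuclei Nfatc1 stood at 350.2, 343 and 379 CPM in pools 1, 2 and 3, and in Kcnc2/Wnt9b nuclei at 359, 316 and 254 CPM. The Grid1/Col23a1 nuclei, the largest subset with 934, had 133.0, 132.9 and 132.9 CPM. The first 2 subsets overlapped with each other and lay above all the rest in every pool. Gja5/Sema3g nuclei (194) had 89.9, 126 and 69.8 CPM, Aplnr/Fabp4 nuclei (237) 95.5, 91.7 and 97.96 CPM, and Cytl1/Rtl4 nuclei (629) 85.97, 74.5 and 110.1 CPM, and these 3 overlapped with each other.

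The subsets were tested in their own fit, each against the mean of the other 5, over 10153 genes. By edgeR's quasi-likelihood test Nfatc1 was higher in Dlgap2/Cntnap5a nuclei by 1.41 (SE 0.118, adjusted p = 1.92e-10) and in Kcnc2/Wnt9b nuclei by 1.26 (SE 0.106, adjusted p = 2.67e-10). It was lower in Cytl1/Rtl4 (-0.89), Aplnr/Fabp4 (-0.85) and Gja5/Sema3g nuclei (-0.73). The Gja5/Sema3g call ended without pool 1 (-0.62, adjusted p = 0.0780), and in Grid1/Col23a1 nuclei Nfatc1 was not called (-0.21, adjusted p = 0.189). After thinning, an Nfatc1 UMI was present in 30.7% ± 3.21 of Dlgap2/Cntnap5a and 22.96% ± 2.05 of Kcnc2/Wnt9b nuclei, and in 7.79% to 13.4% of the other 4 subsets.

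The 7 valve endothelial markers summed to 2351 CPM in Kcnc2/Wnt9b and 1941 CPM in Dlgap2/Cntnap5a nuclei, against 211 to 685 CPM in the others. The 6 endocardial markers parted these 2 subsets, with the highest sum of all in Kcnc2/Wnt9b nuclei (3780 CPM) and 1144 CPM in Dlgap2/Cntnap5a nuclei, below Grid1/Col23a1 (2731 CPM) and Cytl1/Rtl4 nuclei (2076 CPM). Kcnc2/Wnt9b nuclei had 187 CPM of Wnt9b, a Wnt ligand of valve endothelium, and 191 CPM of Wnt4. Dlgap2/Cntnap5a nuclei had Prox1, a homeobox factor also found in lymphatic endothelium, at 1543 CPM against far lower levels in the others, and Wnt4 at 107 CPM, with Wnt9b at 3.15 CPM. Prox1 is on both the valve and the lymphatic list and made up most of the valve sum of these nuclei. Other cell types' markers moved with these subsets too. The 11 fibroblast markers summed to 1742 CPM in Dlgap2/Cntnap5a nuclei and to 297 to 857 CPM elsewhere, the 7 lymphatic markers to 1622 CPM (most of it Prox1) against 39.2 to 285 CPM, and the 10 valve interstitial markers to 994 CPM in Kcnc2/Wnt9b nuclei and to 204 to 677 CPM elsewhere. Their part in the Nfatc1 levels was not tested. The Aplnr/Fabp4 nuclei carried capillary markers (5163 CPM summed) and the Gja5/Sema3g nuclei arterial ones (1545 CPM).

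**Figure D3:**
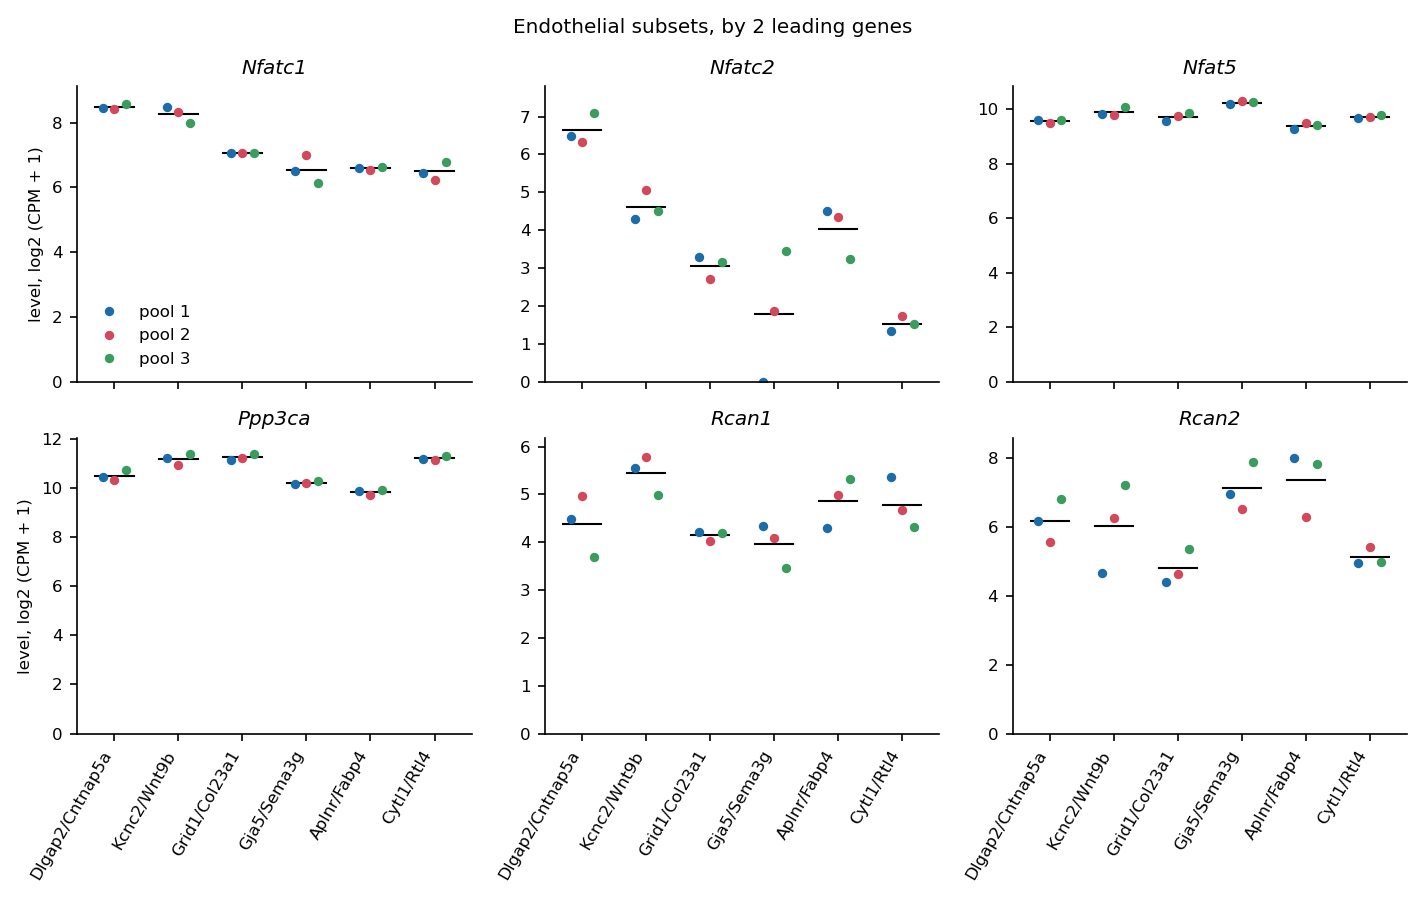
Level as log2 (CPM + 1) of 6 of the genes in the 6 endothelial subsets, with 1 point per pool and a black line at the mean. Nfatc1 and Nfatc2 are highest in the Dlgap2/Cntnap5a subset, Ppp3ca is lowest in the Aplnr/Fabp4 subset, Rcan2 overlaps between the Aplnr/Fabp4 and Gja5/Sema3g subsets, and Nfat5 is highest in the Gja5/Sema3g subset.

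Nfatc2 differed among the endothelial subsets even more than Nfatc1. Its level in Dlgap2/Cntnap5a nuclei was 89.1, 79.4 and 134 CPM, and in Kcnc2/Wnt9b nuclei 18.8, 32.2 and 21.8 CPM. Cytl1/Rtl4 nuclei had 1.54, 2.33 and 1.90 CPM, from 3, 2 and 1 UMIs. The Dlgap2/Cntnap5a nuclei did not overlap with any other subset. Their 8 T and NK cell markers summed to 44.5, 46.7 and 71.1 CPM, against means of 5.50 to 16.0 CPM elsewhere, with 5 of the 8 at 0 (Cd3e, Cd3d, Il7r, Bcl11b and Nkg7), and their endothelial markers to 5542 CPM, against 7008 to 9060 CPM. The part of these in the Nfatc2 level was not tested. The differences were 3.68 (SE 0.267, edgeR adjusted p = 1.25e-11) in Dlgap2/Cntnap5a, 1.34 (adjusted p = 0.00198) in Kcnc2/Wnt9b and -2.91 (adjusted p = 2.32e-04) in Cytl1/Rtl4 nuclei. The Kcnc2/Wnt9b call ended without pool 2 (1.04, adjusted p = 0.0838). In Gja5/Sema3g nuclei, with 0, 1 and 2 UMIs, the fitted difference of -2.27 had an adjusted p of 0.0197, and the call ended without pool 1 (adjusted p = 0.310) and without pool 2 (0.0943).

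Over the classes, Nfatc2, a factor best known from lymphocytes, was highest in macrophage-like, cardiomyocyte-like and lymphatic endothelial-like nuclei. Its level was 83.1, 81.99 and 138 CPM in macrophage-like, 68.3, 77.3 and 80.99 CPM in cardiomyocyte-like and 62.3, 41.9 and 59.9 CPM in lymphatic endothelial-like nuclei. No other class exceeded 21.3 CPM in any pool, and smooth muscle-like nuclei had only 1.92, 2.18 and 2.04 CPM. By edgeR's test Nfatc2 was higher in cardiomyocyte-like (2.68, SE 0.0975, adjusted p = 5.54e-23), macrophage-like (2.52, SE 0.192, adjusted p = 3.57e-13) and lymphatic endothelial-like nuclei (1.72, adjusted p = 5.02e-06). Lower levels were called in smooth muscle-like (-3.46, SE 0.267, adjusted p = 3.97e-13), mesothelial-like (-1.32) and valve interstitial-like nuclei (-0.63). The valve interstitial-like call ended without pool 2, without pool 3 (adjusted p = 0.114 in both) and without the lymphatic class (0.105).

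Nfatc4 was highest in pericyte-like, valve interstitial-like and fibroblast-like nuclei. Pericyte-like nuclei had 55.98, 65.7 and 82.5 CPM, valve interstitial-like nuclei 52.3, 42.01 and 41.1 CPM, and fibroblast-like nuclei 35.4, 29.2 and 44.3 CPM. The pericyte-like values lay above those of the other 2 classes, which overlapped. Smooth muscle-like nuclei came next with 24.96 ± 1.79 CPM, and cardiomyocyte-like nuclei were lowest with 4.69, 4.61 and 2.98 CPM. It was higher in pericyte-like (2.13, SE 0.294, edgeR adjusted p = 1.11e-06), valve interstitial-like (1.61, SE 0.151, adjusted p = 5.72e-11), fibroblast-like (1.14, adjusted p = 1.21e-06) and smooth muscle-like nuclei (0.66, adjusted p = 4.20e-04). Fibroblast-like nuclei include a cluster of 180 that passed 8 of 10 valve interstitial markers, and the part of these markers in the Nfatc4 level was not tested. Nfatc4 was lower in cardiomyocyte-like (-1.86, adjusted p = 2.96e-09) and mesothelial-like nuclei (-1.81, adjusted p = 8.35e-06). In macrophage-like nuclei, with 8, 3 and 0 UMIs, the difference of -1.11 had an adjusted p of 0.0483, and leaving out any 1 pool ended that call, with adjusted p from 0.0871 to 0.175. Among the endothelial subsets Nfatc4 was called only in Grid1/Col23a1 nuclei (-0.93, edgeR adjusted p = 0.0322), which was lost without pool 1 (0.655).

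Nfatc3 was close to even. Its class means ran from 148 ± 29.1 CPM in macrophage-like to 88.97 ± 7.68 CPM in mesothelial-like nuclei, and neighbouring classes overlapped except endothelial-like (115 ± 6.73) and cardiomyocyte-like (99.2 ± 2.56). It was called only in mesothelial-like nuclei, at a log2 difference of -0.24 (edgeR adjusted p = 0.0293), and leaving out any 1 pool ended that call (0.0508 to 0.128). In cardiomyocyte-like nuclei its difference was 0.06 with the scaling used here and -0.29 (adjusted p = 7.64e-04) with library totals alone.

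Nfat5, the tonicity-responsive factor, stood out in lymphatic endothelial-like nuclei, with 2831, 1975 and 2063 CPM in pools 1, 2 and 3. Mesothelial-like nuclei were lowest with 301, 263 and 327 CPM, and macrophage-like nuclei had 645, 440.3 and 573 CPM. The other 6 classes had means between 686 and 869 CPM, and neighbours among them overlapped except smooth muscle-like (816 ± 51.1) and cardiomyocyte-like nuclei (763 ± 7.24). Nfat5 was higher in lymphatic endothelial-like nuclei by 1.70 (SE 0.0891, edgeR adjusted p = 1.73e-17) and in cardiomyocyte-like nuclei by 0.37 (adjusted p = 6.99e-04), the latter at 0.01 (adjusted p = 0.967) with library totals alone. It was lower in mesothelial-like (-1.30, adjusted p = 2.45e-12) and macrophage-like nuclei (-0.68, adjusted p = 9.50e-06). With the lymphatic class left out of the fit it was also called higher in endothelial-like (0.38), smooth muscle-like (0.40) and valve interstitial-like nuclei (0.27). Within the endothelium it was highest in Gja5/Sema3g nuclei, at 1182, 1254 and 1222 CPM, above every other subset in every pool (0.62, adjusted p = 3.25e-07), and lowest in Aplnr/Fabp4 nuclei (-0.49, adjusted p = 2.78e-05). Gja5/Sema3g nuclei also had the highest mean sums of red cell markers, 1715, 356 and 1117 CPM in pools 1, 2 and 3 against means of 293 to 688 CPM, and of neuron markers, 335 CPM against 31.0 to 121 CPM with 4 of 9 at 0. Their part in the Nfat5 level was not tested.

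Of the calcineurin subunits, Ppp3ca differed most between classes. This catalytic subunit was at 1999, 1924 and 2191 CPM in endothelial-like nuclei and at 1819, 1490.4 and 1843 CPM in lymphatic endothelial-like nuclei. The next class, macrophage-like, had 750.3, 856 and 1008 CPM, and smooth muscle-like nuclei were lowest with 306, 305 and 379 CPM. Both endothelial classes lay above all others in every pool and did not overlap with each other. Ppp3ca was higher in endothelial-like (1.58, SE 0.0717, edgeR adjusted p = 9.70e-20) and lymphatic endothelial-like nuclei (1.29, adjusted p = 2.86e-15), and lower in smooth muscle-like (-1.29, adjusted p = 5.85e-14), pericyte-like (-0.69, adjusted p = 4.27e-06) and cardiomyocyte-like nuclei (-0.61, adjusted p = 1.70e-07). In mesothelial-like nuclei it was not called (-0.17, adjusted p = 0.101) but was called lower in 8 other settings, and in fibroblast-like nuclei (-0.14) in 2. After thinning to 1000 UMIs, a Ppp3ca UMI was present in 79.2% ± 1.73 of endothelial-like and 26.1% ± 3.57 of smooth muscle-like nuclei, the class with the lowest level, whose median depths were 4446 and 3440 UMIs.

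Among the endothelial subsets Ppp3ca split 3 against 3. Grid1/Col23a1 (2432 ± 213 CPM), Cytl1/Rtl4 (2386 ± 144) and Kcnc2/Wnt9b nuclei (2339.9 ± 359) overlapped with each other, and Dlgap2/Cntnap5a (1459 ± 229), Gja5/Sema3g (1188 ± 61.9) and Aplnr/Fabp4 nuclei (914 ± 74.8) lay below them. The differences were 0.67, 0.68 and 0.57 in the first 3 (edgeR adjusted p = 3.41e-07 or smaller) and -1.07 in Aplnr/Fabp4 and -0.55 in Gja5/Sema3g nuclei (adjusted p = 5.78e-11 and 7.34e-06). Nfat5 and Ppp3ca were both a little lower in Dlgap2/Cntnap5a nuclei. The Nfat5 difference was -0.29 (edgeR adjusted p = 0.00815) and was lost without pool 2 (0.0994), without pool 3 (0.0507) and with no replicate block (0.0626). The Ppp3ca difference there was -0.31 (adjusted p = 0.00420), and it was not called without pool 1, without pool 2 or with no replicate block (adjusted p from 0.0658 to 0.0987).

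The other catalytic subunit, Ppp3cb, and the regulatory subunit Ppp3r1 varied little. Ppp3cb class means ran from 292 ± 48.9 CPM in fibroblast-like to 139.6 ± 8.52 CPM in mesothelial-like nuclei. It was lower in mesothelial-like nuclei by 0.51 (log2 difference -0.51, edgeR adjusted p = 0.00124). The rises in fibroblast-like (0.34, adjusted p = 0.0191) and cardiomyocyte-like nuclei (0.32, adjusted p = 0.0101) were small, and each was lost without 1 pool (without pool 3 for the first, adjusted p = 0.281, and without pool 2 for the second, 0.0902). The first also ended with no replicate block (adjusted p = 0.0518), and the second stood at -0.04 with library totals alone. Ppp3r1 was highest in mesothelial-like nuclei, with 60.8, 75.9 and 86.5 CPM, which overlapped with the pericyte-like values of 68.4, 48.1 and 82.5 CPM. Its difference in mesothelial-like nuclei was 0.69 (SE 0.111, adjusted p = 2.34e-06), and with these settings it was called in no other class. It was called lower in cardiomyocyte-like nuclei with library totals alone (-0.47, adjusted p = 7.18e-05) and in lymphatic endothelial-like nuclei at a clustering resolution of 0.5 (-0.65, adjusted p = 0.0393). Neither gene was called in any endothelial subset.

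The RCAN genes, which encode the calcineurin regulators, had unlike patterns. Rcan2 was highest in the contractile classes, with 1602, 1481 and 1570.3 CPM in smooth muscle-like, 1259.6, 893 and 1433 CPM in pericyte-like and 671, 657 and 763 CPM in cardiomyocyte-like nuclei. Valve interstitial-like nuclei were lowest with 61.8, 58.5 and 71.7 CPM and overlapped with endothelial-like nuclei at 58.1, 49.9 and 107 CPM. The smooth muscle-like class lay above all others in every pool. Rcan2 was higher in smooth muscle-like (2.90, SE 0.146, edgeR adjusted p = 4.67e-18), pericyte-like (2.31, SE 0.182, adjusted p = 3.00e-12) and cardiomyocyte-like nuclei (1.94, SE 0.156, adjusted p = 3.29e-13). Pericyte-like nuclei, a single cluster that passed 6 of 8 pericyte and 7 of 8 smooth muscle markers, had smooth muscle markers summing to 3848 CPM, where the smooth muscle-like class had 5542 CPM. The part of smooth muscle markers in the Rcan2 level was not tested, neither in these nuclei nor in cardiomyocyte-like nuclei. Lower calls were made in valve interstitial-like (-2.37), endothelial-like (-2.26), fibroblast-like (-1.73) and mesothelial-like nuclei (-0.87), with adjusted p of 9.25e-04 or smaller. In macrophage-like nuclei pool 1 stood apart, with 679 CPM against 203 and 218 CPM, and the difference of 0.52 was not called (adjusted p = 0.0656), though 8 of the other settings did call it. Smooth muscle markers in these nuclei summed to 2313 CPM in pool 1 against 914 and 885 CPM, and pericyte markers to 539 against 167 and 218 CPM, and their part in the Rcan2 level was not tested. An Rcan2 UMI was present after thinning in 62.3% ± 1.17 of smooth muscle-like nuclei and in 4.09% ± 0.935 of valve interstitial-like nuclei, the class with the lowest level, with median depths of 3440 and 3610.5 UMIs.

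Rcan1, the regulator with the NFAT-responsive start, had low counts and a narrower range. Lymphatic endothelial-like nuclei had 49.2, 38.9 and 33.3 CPM, from 15, 13 and 5 UMIs. Endothelial-like nuclei had 29.5, 27.00 and 21.7 CPM, cardiomyocyte-like nuclei 24.7, 25.1 and 23.4 CPM and valve interstitial-like nuclei 28.6, 25.6 and 17.9 CPM. The last 3 classes overlapped and lay below the first. It was higher in lymphatic endothelial-like (1.14, edgeR adjusted p = 0.00118), cardiomyocyte-like (0.71, adjusted p = 8.37e-07) and endothelial-like nuclei (0.44, adjusted p = 0.00164), and lower in fibroblast-like (-0.86, adjusted p = 1.71e-04) and smooth muscle-like nuclei (-0.49, adjusted p = 0.00268). Without pool 1 the calls in lymphatic endothelial-like (adjusted p = 0.104), endothelial-like (0.102) and smooth muscle-like nuclei (0.160) ended.

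In the endothelial subsets Rcan1 was highest in Kcnc2/Wnt9b nuclei, at 45.7, 53.7 and 30.9 CPM, with a difference of 1.02 (SE 0.215, edgeR adjusted p = 6.38e-04), and these values overlapped with the 18.8, 30.6 and 39.2 CPM of Aplnr/Fabp4 nuclei. The Dlgap2/Cntnap5a nuclei, the other subset with high Nfatc1, had 21.5, 30.4 and 11.9 CPM and a difference of -0.25 that was not called (adjusted p = 0.634). Grid1/Col23a1 nuclei were lower by 0.67 (log2 difference -0.67, adjusted p = 0.0361), which was not called without pool 1 (adjusted p = 0.186) or without pool 2 (0.260). That call also ended with no filter on low counts (0.0659), with no replicate block (0.0560) and with DESeq2's Wald test (0.111). Rcan2 was higher in Aplnr/Fabp4 (1.68, adjusted p = 5.05e-06) and Gja5/Sema3g nuclei (1.19, adjusted p = 0.00325) and lower in Grid1/Col23a1 (-1.69, adjusted p = 5.96e-05) and Cytl1/Rtl4 nuclei (-1.15, adjusted p = 0.00522), the last of which ended without pool 3 (0.0965). The Rcan2 levels of 256, 77.8 and 227 CPM in Aplnr/Fabp4 nuclei overlapped with the 124, 90.9 and 234 CPM of Gja5/Sema3g nuclei. The Aplnr/Fabp4 subset also had the highest sums of smooth muscle and pericyte markers among the subsets (986 and 264 CPM, against 321 to 738 and 117 to 216 CPM) and of cardiomyocyte markers (2690 CPM, against 1126 to 1568 CPM), and their part in its Rcan2 level was not tested, nor was that of the red cell and neuron markers in the Rcan2 level of Gja5/Sema3g nuclei.

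Counted over the 10 genes, Gja5/Sema3g nuclei had 2 higher and 3 lower, against 21% of genes called (11% and 9.95%). Kcnc2/Wnt9b nuclei had 4 higher and 0 lower, against 24.2% (15.6% and 8.54%), and Dlgap2/Cntnap5a nuclei 2 and 2, against 24.4% (11.7% and 12.7%). The other 3 subsets had 1 higher and 3 lower each, against 28.8% (13.5% and 15.3%) in Grid1/Col23a1, 20.4% (12.3% and 8.14%) in Cytl1/Rtl4 and 28.2% (17.1% and 11.1%) in Aplnr/Fabp4 nuclei. All 4 called in Kcnc2/Wnt9b nuclei were higher: Nfatc1, Nfatc2, Rcan1 and Ppp3ca. In the other subsets both directions occurred. The medians of the 10 genes lay between -0.14 and 0.22 and those of all genes between -0.03 and 0.01.

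Clusters within other classes also differed, which is given as a description with no test. They too were cut from the same nuclei. Valve interstitial-like nuclei formed 2 clusters. The one led by Abi3bp, Ctnna2 and Col11a1 (560 nuclei) had Nfatc1 at 201, 195 and 189.8 CPM, and the one led by Rmst, Pcdh15 and Rnf43 (918 nuclei) at 81.5, 78.5 and 83.9 CPM. The 2 clusters did not overlap in Nfatc1. The former passed 6 of 10 valve interstitial and 6 of 11 fibroblast markers, and the latter 10 and 5, and the part of these markers in the Nfatc1 levels was not tested. Nfatc2 was at 21.8, 23.2 and 26.7 CPM in the former and at 11.5, 0.924 and 6.22 CPM in the latter. Among the 5 smooth muscle-like clusters Rcan2 ran from 903 ± 155 CPM in the one led by Hgf to 2417 ± 88.5 CPM in the one led by Mylk4. Of the 5 cardiomyocyte-like clusters, the one led by Mb, Fabp3 and Myl3 had the lowest Rcan2 (324 ± 67.1 CPM) and Nfatc2 (38.2 ± 5.32 CPM), and the largest one (1613 nuclei) the highest of both, 768 ± 48.2 and 87.6 ± 8.04 CPM. The Mb cluster (294 nuclei, 43 of them from pool 3) had a median of 2715.5 UMIs, against 5540 in the largest. The part of depth in these levels was not tested.

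**Figure D4:**
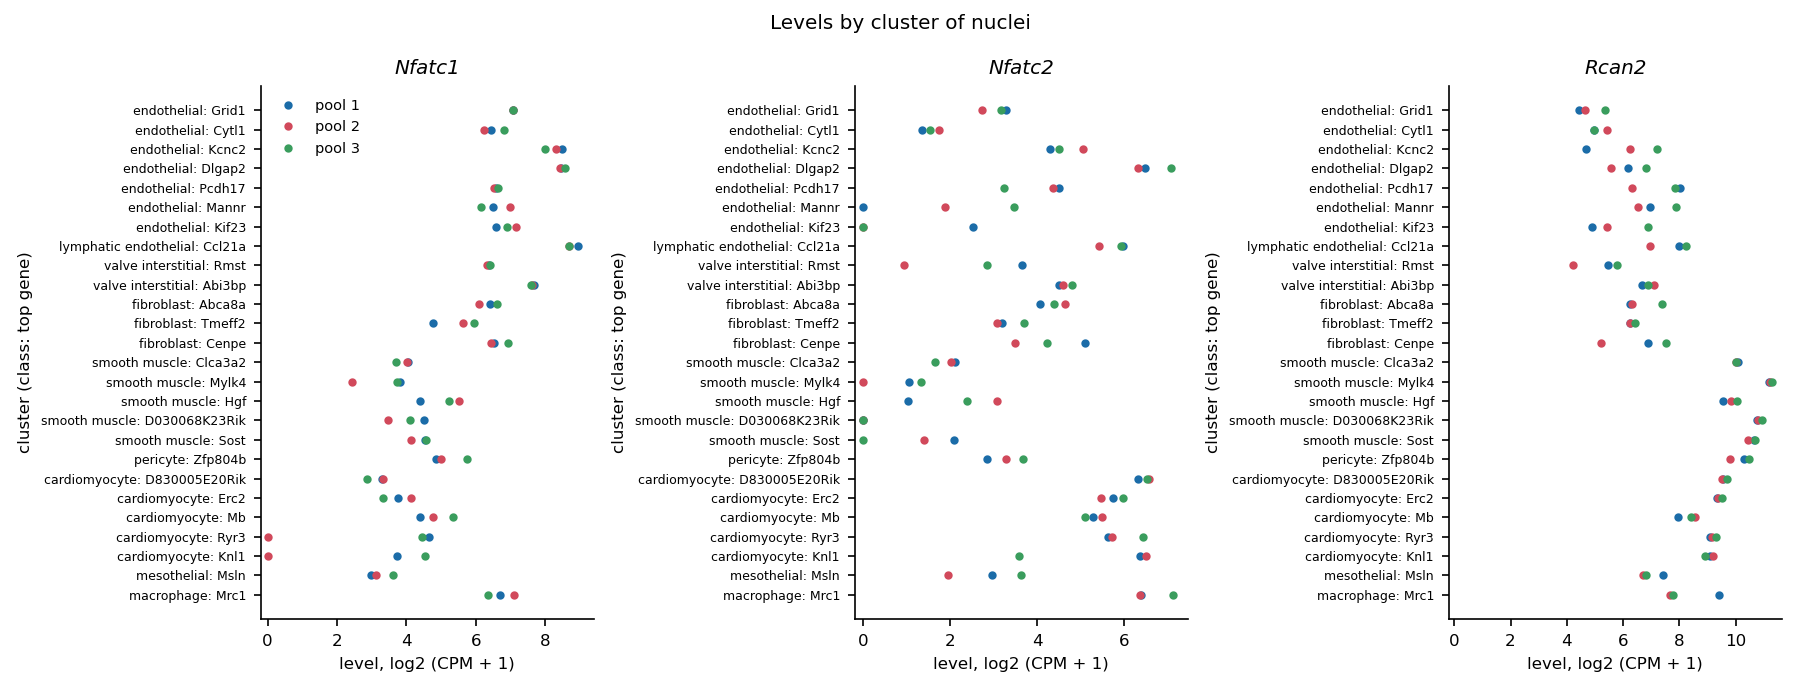
Level as log2 (CPM + 1) of Nfatc1, Nfatc2 and Rcan2 in every named cluster of the 9 classes, with 1 point per pool and clusters labelled by class and top gene. Nfatc1 separates the 2 valve interstitial clusters and the endothelial ones, and Rcan2 is at 903 CPM or more on average in every smooth muscle cluster.

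The machinery around the 10 genes was read from 6 lists with 81 genes, of which 72 passed the filter on low counts, and 4 classes were examined. In endothelial-like nuclei 20 of the 72 were higher and 17 lower, in valve interstitial-like nuclei 18 and 19, in smooth muscle-like nuclei 14 and 26, and in cardiomyocyte-like nuclei 32 and 28. Among all genes the shares higher and lower were 21.8% and 16.9% in endothelial-like, 18.4% and 16.3% in valve interstitial-like, 21% and 21.4% in smooth muscle-like and 32.6% and 32.3% in cardiomyocyte-like nuclei. The lists are described by these counts, and no list was tested as a whole.

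Of 15 calcium entry and release genes, 8 were higher and 3 lower in endothelial-like nuclei, with a median of 0.54 against 0.02 over all genes. The largest were Plcg2, a phospholipase that produces the trigger for calcium release (3.42), Itpr3, a calcium release channel (2.81), and Trpc6, a cation channel (2.54). In smooth muscle-like nuclei 2 were higher and 8 lower, among them Trpc6 (-2.38) and Orai1, the pore of store-operated calcium entry (-1.39). Cardiomyocyte-like nuclei had 6 higher and 6 lower, led by the ryanodine receptor Ryr2 (6.28) and the L-type calcium channel Cacna1c (4.95). In valve interstitial-like nuclei 4 were higher and 5 lower, among the latter Ryr2 (-2.12) and Plcg2 (-1.77).

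The list of further calcineurin subunits and regulators had 12 tested genes. Akap6, an anchoring protein that holds calcineurin in muscle, was higher in cardiomyocyte-like (3.80) and smooth muscle-like nuclei (1.99) and lower in endothelial-like nuclei (-1.93). Myoz2, which binds calcineurin at the sarcomere, was higher in cardiomyocyte-like nuclei (4.66) and lower in valve interstitial-like (-1.33) and endothelial-like nuclei (-0.75). Ppp3cc, another catalytic gene, was lower in endothelial-like nuclei (-0.74, edgeR adjusted p = 2.98e-08), opposite in direction to Ppp3ca there. Of 11 tested calmodulins and calmodulin kinases, 2 were higher and 4 lower in endothelial-like nuclei, and 4 were higher and 7 lower in cardiomyocyte-like nuclei. Camk4 was higher in endothelial-like (3.90, edgeR adjusted p = 6.48e-23) and lower in cardiomyocyte-like nuclei (-2.99), and Camk2a was higher in cardiomyocyte-like (5.52) and lower in endothelial-like nuclei (-1.01).

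Of 15 NFAT kinases, transport factors and scaffolds, 2 were higher and 3 lower in endothelial-like nuclei. The Homer genes, whose scaffold proteins bind NFAT, differed in direction between members: in cardiomyocyte-like nuclei Homer1 (2.59) and Homer2 (4.41) were higher and Homer3 (-1.40) lower, and in endothelial-like nuclei Homer3 (0.51) was higher and Homer1 (-0.84) and Homer2 (-1.04) lower. Of 12 tested genes known as calcineurin and NFATc targets, 5 were higher and 2 lower in valve interstitial-like nuclei. The largest difference in these nuclei was a lower level of the receptor gene Tnfrsf11a (-4.05). Those that were higher there include the early response genes Egr3 (3.73) and Egr2 (2.49), whose levels were only 11.5 and 12.96 CPM, and Egr3 was as high in fibroblast-like nuclei (12.5 CPM). Egr3 had 0 UMIs in mesothelial-like and pericyte-like nuclei, so the size of its fitted difference is no bound. Cardiomyocyte-like nuclei had the same counts, 5 and 2, with Myh7 (3.41) and Nppb (2.71) among the higher ones, and smooth muscle-like nuclei had 1 and 3. In endothelial-like nuclei 1 was higher, the protease gene Ctsk (1.96), and 1 lower. Of 7 tested tonicity genes known as Nfat5 targets, 4 were higher and 1 lower in endothelial-like nuclei, with Aqp1, a water channel (2.26), Sgk1 (1.34) and the taurine transporter Slc6a6 (1.04) the largest. In cardiomyocyte-like nuclei 2 were higher and 4 lower, among the latter Sgk1 (-2.72) and Aqp1 (-2.23).

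Genes with a pattern most like Nfatc1 were listed by the correlation of log2 (CPM + 1) class means, over 9 classes that share the same 3 libraries. Among the 5 highest of 14820 genes were Gatad2a (r = 0.983), Trip12 (0.971), Gabpb1 (0.958) and Elk4 (0.958). Gatad2a itself ran over a small range, from 53.2 CPM in cardiomyocyte-like to 107 CPM in lymphatic endothelial-like nuclei. Among the other 9 genes of the set Ppp3ca was most like Nfatc1 (r = 0.849, rank 158) and Rcan2 least (r = -0.462, rank 13616). Over the 6 endothelial subsets the 5 highest of 10153 genes were Lekr1 (0.983), Necap1 (0.982), Sgk3 (0.982), Wnt4 (0.982) and Serpina3n (0.979). The mean of Necap1 ran only from 14.6 to 19.4 CPM, with SDs over the pools of up to 8.76 CPM, and that of Lekr1 from 15.6 to 29.6 CPM. In contrast, Wnt4 ran from 2.02 CPM in Cytl1/Rtl4 to 191 CPM in Kcnc2/Wnt9b nuclei and Sgk3 from 78.7 to 327 CPM, with its highest level in Dlgap2/Cntnap5a nuclei. Nfatc2 had r = 0.846 with Nfatc1 over the subsets (rank 261).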

How the data were processed

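Single-nucleus RNA-seq (the gene expression part of a 10x Multiome assay) was deposited for 3 pools of 1 group. The deposited values are counts of UMIs per gene and nucleus, made by the authors with Cell Ranger 7.1.0, per the file headers. Cell Ranger 7.0.1 and 7.1.0 and GRCm39 are listed per the submitters' processing notes. The annotation and the treatment of intronic reads are not given in the sources used here. Nuclei with at least 1000 UMIs, 300 genes and at most 5% mitochondrial UMIs were kept and doublets were removed, which left 3078 to 6459 nuclei per pool.

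Nuclei were clustered with scanpy 1.11.5 and leidenalg 0.10.2 (2000 variable genes, 30 components, resolution 1) without the 10 genes and the pathway lists. A cluster was named from at least 3 markers at least 2 times above the median of the other clusters. Each also had to be found in 10% or more of its nuclei. The class with the largest mean log2 fold was taken, and clusters with conflicting top genes or depth were left unnamed. These rules were set after the clusters were seen. Because the classes were built from the same nuclei, a difference in names from the study may come from rebuilt names.

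Counts were summed per pool and class and tested with edgeR 4.0.16 (quasi-likelihood, TMM scaling, low counts filtered, R 4.3.3), with the pool as a block, since the classes of 1 pool share its library. The self-written test steps were tested on simulated data. The 10 genes and the lists were chosen with earlier results of these data known. All 10 genes are named, and of each pathway list up to 3 called genes with the largest difference per class; a few of the genes these rules name are not reported here. Alternatives were other scaling, DESeq2 1.42.0, no filter, no block, leaving out a pool or the lymphatic class, 500 UMIs, no mitochondrial limit, doublets kept, and resolutions 0.5 and 2. Fold sizes cover these pools, and shares of nuclei carry counting error besides.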

Additional observations from a re-analysis of the deposited data

How the results depend on the processing

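Over 16 comparisons, the number of the 10 genes called was within 1.5 times its value in 182 of 187 refits. With no replicate block the count in Dlgap2/Cntnap5a nuclei went from 4 to 2, and with DESeq2 that in Grid1/Col23a1 nuclei from 4 to 2, and the cause was not tested. The block changed no other count by over 1.5 times. Leaving out each pool in turn, the counts ranged from 2 to 4 in Grid1/Col23a1, 2 to 3 in Dlgap2/Cntnap5a and 3 to 5 in Gja5/Sema3g nuclei. Of 77 calls of single genes, 57 held in every setting run. In 923 refits of these calls 864 kept direction and call, 58 lost the call (29 of them with a pool left out) and 1 reversed. Of the 83 pairs of gene and comparison that were not called, 20 became called in at least 1 setting, 1 of them with its direction reversed. Both reversals were in cardiomyocyte-like nuclei with library totals only, chosen after seeing the data: Nfatc3 at -0.29 and Ppp3cb at -0.0359. That scaling moved the median of all genes there to -0.40. Of 90 shares of nuclei, all 90 moved by more than 1 SD without thinning and 28 with doublets kept. The smallest UMI counts limit Nfatc2, Nfatc4 and Rcan1 in the small classes, such as 2 UMIs of Nfatc2 in each pool of pericyte-like nuclei.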
